A study of Mus musculus with 10 samples.

Results

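Glucose breakdown and the response to low oxygen were followed in the PyMt breast cancer cell line through 35 genes of the 17171 in the expression table. The genes were picked by symbol: 21 encode glucose transport, the enzymes of glycolysis and the proteins that steer them, and 14 are other genes known to respond to hypoxia. The picking used no measured value, but results of these data were known when it was made. RNA was measured in 10 libraries, and the labels carry 5 tags (Blank, Control and the 3 Test tags Test1 to Test3), each on 2 libraries that are called a set here. PyMt cells, a mouse line started from MMTV-PyMt breast tumors, were grown on low-adherence plates with insulin in supernatant of CD4+ T cells. The 6 libraries of the Test sets (test) had supernatant of T cells from Tslp-PyMttg animals, in which a keratin 14 promoter drives the cytokine TSLP in the skin. The 4 libraries of the Blank and Control sets (control) are all titled as control supernatant, for which the labels name Tslp-PyMttg TslprKO animals, whose T cells lack the TSLP receptor, and PyMttg animals. The T cells of test and control alike were stimulated with antibodies to CD3 and CD28 in medium with TSLP and IL-2. Which of the named donors stands behind each tag, and what Blank means, is not stated, so the sets are given apart below. Nothing says that the libraries came from separate cultures, all cells are of 1 line, and a p-value below covers no more than the differences among these 10 libraries, which could be technical repeats.

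Glycolysis splits glucose into pyruvate. Glucose enters through transporters such as GLUT1 and is trapped by a hexokinase, phosphofructokinase commits it to breakdown, and lactate dehydrogenase turns surplus pyruvate into lactate. Many of these genes are targets of the hypoxia-inducible factor HIF, whose α subunit is made all the time and destroyed in normal oxygen after prolyl hydroxylases of the Egln family mark it. HIF binds a short DNA core, ACGTG or GCGTG, and raises glucose uptake, glycolysis, mitophagy and collagen-processing genes, among them genes for its own hydroxylases. Breast cancer cells are known for high glycolysis even where oxygen is at hand.

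The promoters of 6 genes on which the results turn are shown, since HIF is known to act through that core. Each is the 250 bases before the RefSeq start of the gene (GRCm38.p6), read 5′ to 3′ on the strand of the gene, with ACGTG and GCGTG on either strand in capitals (on the other strand they read CACGT and CACGC). Slc2a1 (GLUT1) stands at chr4:119108495-119108744 on the plus strand, Hk2 (hexokinase 2) at chr6:82774455-82774704 on the minus strand, and Bnip3 (a mitophagy receptor) at chr7:138909507-138909756 on the minus strand. Ero1l (an oxidase of the endoplasmic reticulum) stands at chr14:45318573-45318822 on the minus strand, Egln3 (a HIF prolyl hydroxylase) at chr12:54203875-54204124 on the minus strand, and P4ha2 (a collagen prolyl hydroxylase) at chr11:54100674-54100923 on the plus strand.
Slc2a1: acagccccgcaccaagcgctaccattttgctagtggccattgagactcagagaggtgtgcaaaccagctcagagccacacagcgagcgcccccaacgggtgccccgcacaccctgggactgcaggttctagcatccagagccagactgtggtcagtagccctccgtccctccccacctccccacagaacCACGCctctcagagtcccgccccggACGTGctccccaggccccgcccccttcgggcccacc
Hk2: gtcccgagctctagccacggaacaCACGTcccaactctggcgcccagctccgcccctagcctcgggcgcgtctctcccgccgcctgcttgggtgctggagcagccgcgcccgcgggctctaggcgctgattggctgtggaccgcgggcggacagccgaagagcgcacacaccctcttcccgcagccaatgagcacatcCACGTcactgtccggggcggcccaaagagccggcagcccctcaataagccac
Bnip3: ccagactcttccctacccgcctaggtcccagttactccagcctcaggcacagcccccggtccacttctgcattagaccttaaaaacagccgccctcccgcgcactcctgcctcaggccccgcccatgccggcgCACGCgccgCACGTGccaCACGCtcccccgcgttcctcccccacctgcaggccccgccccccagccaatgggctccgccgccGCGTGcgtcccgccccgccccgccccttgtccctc
Ero1l: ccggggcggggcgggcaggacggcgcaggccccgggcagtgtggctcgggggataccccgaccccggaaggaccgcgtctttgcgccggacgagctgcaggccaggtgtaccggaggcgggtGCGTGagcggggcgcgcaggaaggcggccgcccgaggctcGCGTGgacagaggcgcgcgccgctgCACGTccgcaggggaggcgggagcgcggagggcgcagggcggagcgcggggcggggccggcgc
Egln3: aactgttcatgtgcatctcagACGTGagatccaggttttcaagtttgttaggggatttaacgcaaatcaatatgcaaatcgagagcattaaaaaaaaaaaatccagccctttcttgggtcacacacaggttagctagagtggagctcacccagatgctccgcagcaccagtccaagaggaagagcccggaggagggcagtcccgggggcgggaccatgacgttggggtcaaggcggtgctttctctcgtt
P4ha2: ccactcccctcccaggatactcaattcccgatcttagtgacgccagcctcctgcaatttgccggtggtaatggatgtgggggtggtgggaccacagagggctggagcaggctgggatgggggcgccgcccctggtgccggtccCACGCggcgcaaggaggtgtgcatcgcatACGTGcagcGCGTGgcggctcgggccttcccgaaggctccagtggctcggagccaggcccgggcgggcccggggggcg
The core stood once in each orientation in the promoter of Slc2a1, at -61 and -36 counted from the start. In Bnip3 it was found at 5 places between -117 and -35, of which -108 and -107 are the overlapping strands of the palindrome CACGTG. RefSeq promoters were matched for 33 of the 35 genes (all but Bnip3l and Ndrg1). At least 1 promoter of 30 of these 33 held either form of the core, in 18 of 21 glycolytic and 12 of 12 other hypoxia genes, and 20 held ACGTG. Gpi1, Tpi1 and Eno2 had no match. Counted by promoter, 79.2% of 48 promoters of these genes held either form, beside 57.0% of 11356 promoters of the genes tested and 38.6% of all 32851. For ACGTG alone the shares were 47.9%, 22.0% and 16.6%. A match to 5 letters is a description of the sequence and not a binding site.

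Expression was given as FPKM, in which the fragments of a gene are divided by its length and by the size of the library, so that levels can be set side by side between genes. FPKM summed to 414783 to 425896 in control libraries and 419709 to 487591 in test libraries, and depth, which is not given, was estimated from the spacing of low values at 11.2 to 15.2 M reads a library (M, mega). Of 7 epithelial markers 6 were in the table and all reached 1 FPKM, with a sum of 1301 to 2793 FPKM in control and 1136 to 2893 in test. Of 9 CD4+ T cell markers 3 were in the table, and Lck and Il2ra stayed at or below 0.26 FPKM. Cd3d, a subunit of the T cell receptor complex, reached 0.98 to 4.87 FPKM in control and 2.25 to 16.65 in test, highest in Test3-1. The markers of other leukocytes (3 of 6 in the table) and of endothelium (4 of 4) stayed below 1 FPKM, and of 6 fibroblast markers only Dcn reached it. In such bulk RNA, fewer cells that express a gene and less RNA per cell cannot be told apart.

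The pathway genes spanned a wide range of levels. Gapdh, which encodes glyceraldehyde-3-phosphate dehydrogenase, had a mean of 3207 FPKM over all libraries and ranked 3 among all genes, followed by the pyruvate kinase gene Pkm with 1105 and the enolase gene Eno1 with 967. The glycolytic genes held 1.57% to 2.10% of the summed FPKM of a library. At the other end, the lactate exporter gene Slc16a3 and the vasodilator peptide gene Adm stayed near or below 1 FPKM. The ankyrin repeat gene Ankrd37 was low as well, and these 3 genes were left out of the tests, which took the 11169 genes that reached 1 FPKM in 4 or more libraries. The 32 tested genes were 20 of the 21 glycolytic and 12 of the 14 other hypoxia genes.

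Cells in test supernatant had more RNA of Hk2, Ero1l, P4ha2 and Egln3 than cells in control supernatant. Differences were fitted with limma on log2(FPKM + 1), a scale that understates the change of low genes, and a gene was called at a Benjamini-Hochberg adjusted p under 0.05 over all 11169 genes. Of the 32 genes 4 rose (12.5%), 0 fell and 28 did not pass, whereas 2.95% of all genes tested rose and 4.92% fell. The rise took in 1 of 20 glycolytic and 3 of 12 other hypoxia genes. The median log2 difference was 0.24 over the glycolytic genes (18 of 20 above 0) and 0.20 over the other hypoxia genes (9 of 12), beside -0.03 over all genes tested. Of the glycolytic genes above 0, Pkm and Eno1 fell below 0 with quantile normalization. The values of Gpi1, Aldoa, Tpi1, Gapdh, Pgk1, Pgam1 and Ldha became smaller with it but stayed above 0. For Gapdh the log2 difference was 0.10 in place of 0.23, and for Ldha 0.33 in place of 0.46. With median-ratio scaling the values of all these enzymes became larger (0.28 for Gapdh and 0.51 for Ldha). The glycolytic genes also moved together between libraries of 1 set, as 18 of 20 were lower in Control-2 than in Control-1. In 5 of the 32 genes (15.6%) every test library stood above every control library, and in 0 every one stood below, against 3.21% and 6.28% of all genes. The calls depended on the unit of replication: with a random effect for the set Ero1l alone kept its call (adjusted p = 0.0131, beside 0.0523 for Hk2, 0.0692 for Egln3 and 0.103 for P4ha2 from limma), and with the mean of each set as 1 sample limma called 0 of the 32 (6 at an unadjusted p under 0.05). A fit of the 6 test libraries against the 2 Control libraries alone, without label sets, also called 0 (4 at an unadjusted p under 0.05).

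**Figure D1:**
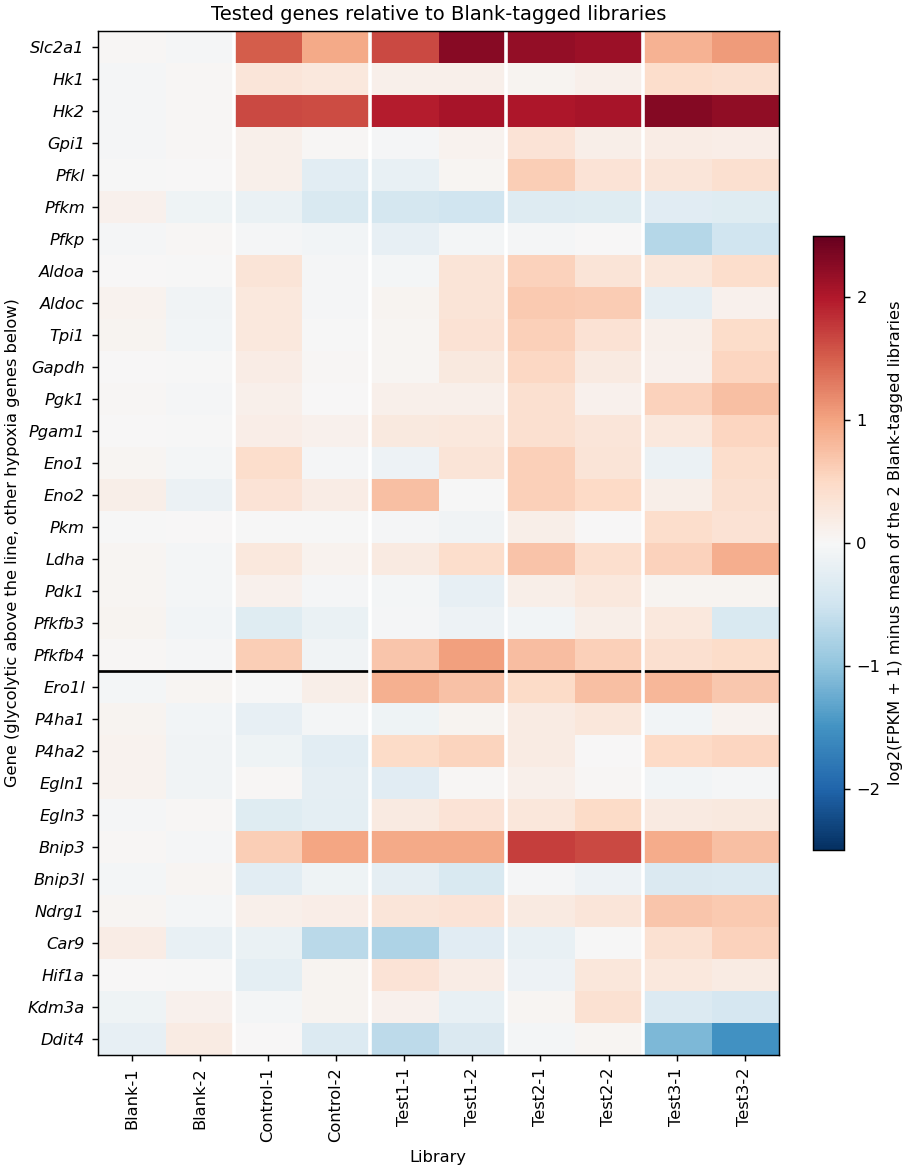
Each row is 1 of the 32 tested genes and each column a library, and the color gives log2(FPKM + 1) minus the mean of the 2 Blank-tagged libraries of that gene. Slc2a1 and Hk2 are red in all Control and Test libraries, Ero1l, P4ha2 and Egln3 are higher in every Test library than in both Control libraries, and Ddit4 is darkest blue in Test3.

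Glucose entry and its trapping showed the widest differences. Hk2, the inducible hexokinase that binds mitochondria, had 11.24 and 11.84 FPKM in the Blank libraries, 38.50 and 37.65 in Control, 48.11 and 51.44 in Test1, 49.80 and 51.61 in Test2 and 60.71 and 57.46 in Test3. Every test library was above every control library, but the Control libraries lay much nearer to the test libraries than to the Blank ones. Hk2 rose from 24.8 ± 15.3 (SD, n = 4) to 53.2 ± 4.85 FPKM (SD, n = 6), a log2 difference of 1.29 (standard error 0.32, adjusted p = 0.0325 from limma). The call was lost without any 1 of 6 libraries (both Blank, both Test1 and both Test3 libraries, adjusted p up to 0.121), with the library number as a replicate block (adjusted p = 0.0524) and with no filter on low values. Hk1, the hexokinase of most tissues, ranged from 51.19 to 65.54 FPKM in control and from 55.22 to 71.38 in test (log2 difference 0.07, adjusted p = 0.718 from limma).

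Slc2a1, the gene of the glucose transporter GLUT1, had 33.48 and 32.16 FPKM in Blank, 96.18 and 63.92 in Control, 105.71 and 162.29 in Test1, 155.06 and 148.34 in Test2 and 60.44 and 69.71 in Test3. Test1 and Test2 were above all control libraries, Test3 overlapped the Control libraries, and Blank was lowest. The means were 56.4 ± 30.3 (SD, n = 4) in control and 117 ± 44.8 FPKM (SD, n = 6) in test, and the log2 difference of 1.08 (standard error 0.36) did not pass (adjusted p = 0.0872 from limma). Without Control-1 it passed, with a log2 difference of 1.39 and an adjusted p of 0.0272.

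**Figure D2:**
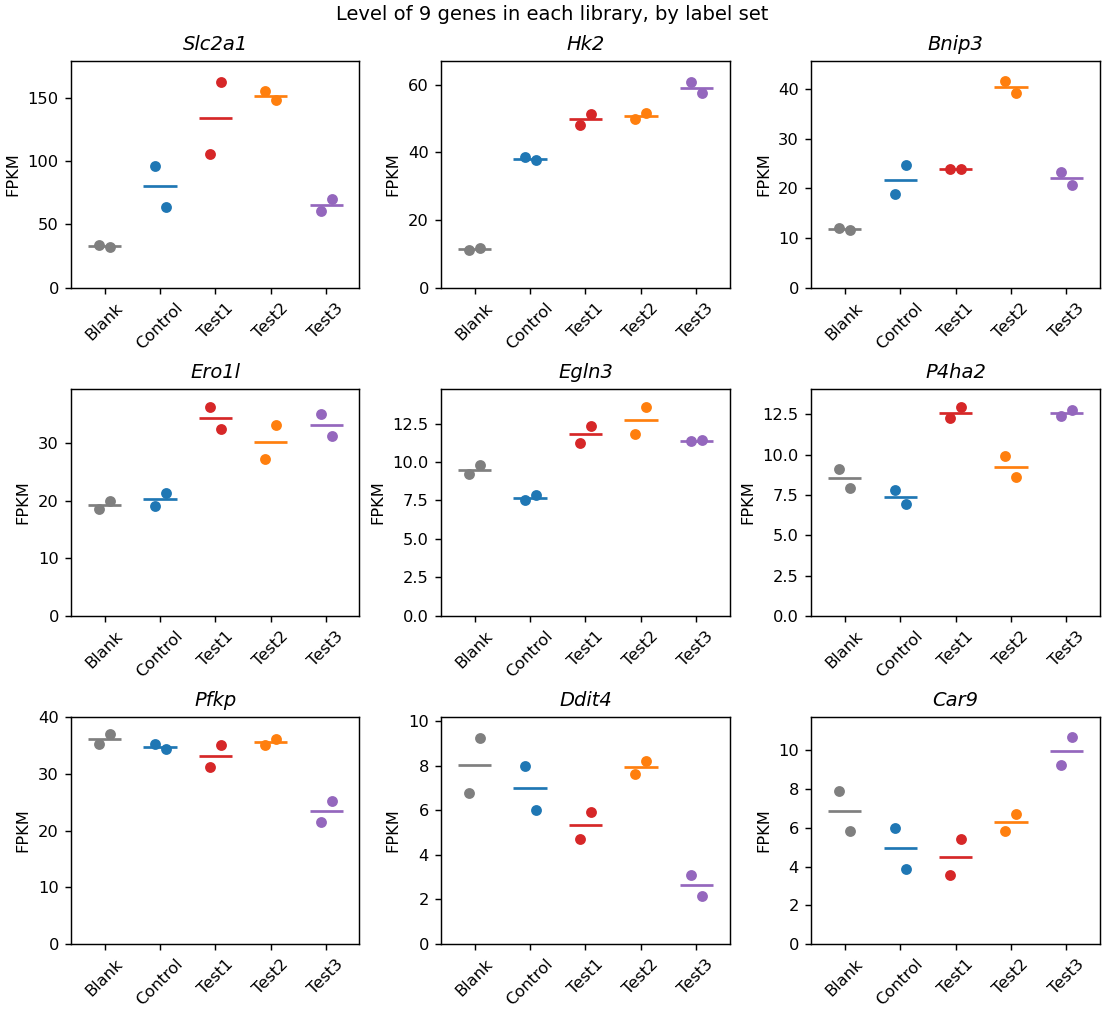
Points are the FPKM of each library and lines the mean of the 2 libraries of a set, for 9 genes with a call in at least 1 comparison. Slc2a1, Hk2 and Bnip3 already differ between Blank (means 32.8, 11.5 and 11.9 FPKM) and Control (80.1, 38.1 and 21.8), Ero1l and Egln3 separate the 3 Test sets from both control sets, and Pfkp, Ddit4 and Car9 stand apart in Test3.

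The 3 phosphofructokinase genes did not pass between test and control. Pfkl, the liver type, ranged from 15.64 to 20.63 FPKM in control and from 16.62 to 29.70 in test, with 29.70 and 24.28 in Test2. Pfkm, the muscle type, ranged from 5.83 to 8.46 in control and from 5.29 to 6.22 in test. Pfkp, the platelet type and the most abundant of the 3, ranged from 34.34 to 37.00 in control and from 21.59 to 36.25 in test, where the 2 lowest values were those of Test3. The log2 differences were 0.29, -0.22 and -0.22, with adjusted p from 0.212 to 0.353 (limma).

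The abundant enzymes of the main chain had higher means in test, and none of them was called. Over Gpi1, Aldoa, Tpi1, Gapdh, Pgk1, Pgam1, Eno1, Pkm and Ldha the 9 log2 differences ran from 0.11 to 0.46, their intervals reached from -0.23 to 0.75, and the adjusted p from 0.0516 to 0.660 (limma). The phosphoglycerate mutase gene Pgam1 had 232.46 and 228.78 FPKM in Blank, 259.81 and 249.83 in Control and 273.71 to 333.72 in test (median 281). Its groups did not overlap, yet the log2 difference of 0.26 (standard error 0.09) had an adjusted p of 0.0857 from limma. Ldha, the lactate dehydrogenase A gene, had 457.98 and 432.05 FPKM in Blank, 535.39 and 473.00 in Control, and 519.84 to 839.89 in test (median 635). Only Test1-1 fell below the highest control library, and the log2 difference was 0.46 (standard error 0.13, adjusted p = 0.0516 from limma).

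Pgk1, the phosphoglycerate kinase gene, ranged from 228.43 to 251.39 FPKM in control and from 250.37 to 389.16 in test, with 345.09 and 389.16 in Test3. Gapdh ranged from 2770 to 3182 FPKM in control and from 2880 to 4030 in test. Pkm ranged from 1022 to 1047 FPKM in control, a spread far narrower than the 976 to 1407 in test, where both Test3 libraries were highest. For Aldoa, the main aldolase gene, the ranges were 454 to 575 FPKM in control and 449 to 687 in test. Tpi1, which encodes triosephosphate isomerase, had 196 to 248 FPKM in control and 212 to 312 in test. Eno1 (815 to 1137 in control, 756 to 1265 in test) and the glucose-6-phosphate isomerase gene Gpi1 (170 to 190, and 171 to 220) overlapped widely between the groups. The brain-type paralogs were scarce: Aldoc had 5.07 to 10.16 FPKM over all libraries, highest in both Test2 libraries, and Eno2 0.65 to 2.09, with log2 differences of 0.20 and 0.27 (adjusted p = 0.506 and 0.354 from limma). The mouse genome holds processed copies of several of these genes, and since the sources do not say how reads that match more than 1 place were counted, their levels are uncertain to that extent.

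Among the genes that steer the pathway, Pfkfb4 showed the largest difference. It encodes a bifunctional enzyme that sets fructose-2,6-bisphosphate, the activator of phosphofructokinase, and had 1.69 and 1.57 FPKM in Blank, 3.01 and 1.47 in Control, 3.23 and 4.34 in Test1, 3.51 and 2.97 in Test2 and 2.47 and 2.60 in Test3. Control-1 lay within the test range and the 3 other control libraries lay below it. The log2 difference was 0.53 (standard error 0.17, adjusted p = 0.0756 from limma), and without Control-1 it was 0.69 with an adjusted p of 0.0177. Its paralog Pfkfb3 stayed between 1.02 and 2.15 FPKM, and Pdk1, which encodes a kinase that inhibits pyruvate dehydrogenase, between 6.29 and 9.09 (log2 differences 0.08 and 0.03). Slc16a3 stayed at 0.14 to 0.32 FPKM except for 0.84 in Test3-1, too low for a test.

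The other hypoxia genes held the clearest separation of test from control. Ero1l, which passes electrons from newly formed disulfide bonds to oxygen, had 18.62 and 19.88 FPKM in Blank, 19.18 and 21.34 in Control, 36.30 and 32.57 in Test1, 27.25 and 33.19 in Test2 and 35.16 and 31.28 in Test3. The control sets were alike and every test library was higher. Ero1l rose from 19.8 ± 1.18 (SD, n = 4) to 32.6 ± 3.19 FPKM (SD, n = 6), a log2 difference of 0.69 (standard error 0.09, adjusted p = 0.00345 from limma). The call held without any 1 library (adjusted p up to 0.0220). Its adjusted p was 0.248 with the mean of each set as 1 sample and 0.0818 with the Control libraries alone as control.

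Egln3, which encodes the prolyl hydroxylase PHD3, had 9.23 and 9.78 FPKM in Blank, 7.54 and 7.84 in Control, 11.25 and 12.33 in Test1, 11.81 and 13.60 in Test2 and 11.35 and 11.41 in Test3. The groups did not overlap, with Control lowest. Egln3 rose from 8.60 ± 1.08 (SD, n = 4) to 12.0 ± 0.897 FPKM (SD, n = 6), by 0.44 on the log2 scale (standard error 0.10, adjusted p = 0.0228 from limma), and lost the call without Blank-1, Blank-2, Control-2 or Test1-2 (adjusted p up to 0.0713) and with the Blank libraries alone as control (log2 difference 0.30, adjusted p = 0.105). Egln1, its paralog PHD2 and the main oxygen sensor, ranged from 12.38 to 15.68 FPKM in control and from 11.90 to 16.19 in test (log2 difference 0.02, interval -0.21 to 0.24). Hif1a itself had 45.66 to 56.41 FPKM in control and 49.43 to 69.03 in test, where only Test2-1 lay within the control range (log2 difference 0.24, adjusted p = 0.188 from limma). Kdm3a, a histone demethylase gene, had 14.81 to 17.47 FPKM in control and 11.81 to 21.40 in test (log2 difference -0.08).

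P4ha2, which encodes a catalytic subunit of the collagen prolyl 4-hydroxylase, had 9.12 and 7.95 FPKM in Blank, 7.78 and 6.95 in Control, 12.24 and 12.96 in Test1, 9.90 and 8.61 in Test2 and 12.41 and 12.76 in Test3. Test1 and Test3 were above all control libraries and Test2-2 lay below Blank-1. P4ha2 rose from 7.95 ± 0.894 (SD, n = 4) to 11.5 ± 1.79 FPKM (SD, n = 6), by 0.47 on the log2 scale (standard error 0.13, adjusted p = 0.0429 from limma). The call was lost without any 1 of 8 libraries, all but the 2 of Test2, with adjusted p up to 0.130, with the replicate block (0.0662), with no filter and with the Blank libraries alone as control (log2 difference 0.38, adjusted p = 0.148). The paralog P4ha1 had 16.80 to 20.53 FPKM in control and 17.94 to 23.99 in test (log2 difference 0.14, adjusted p = 0.432 from limma).

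**Figure D3:**
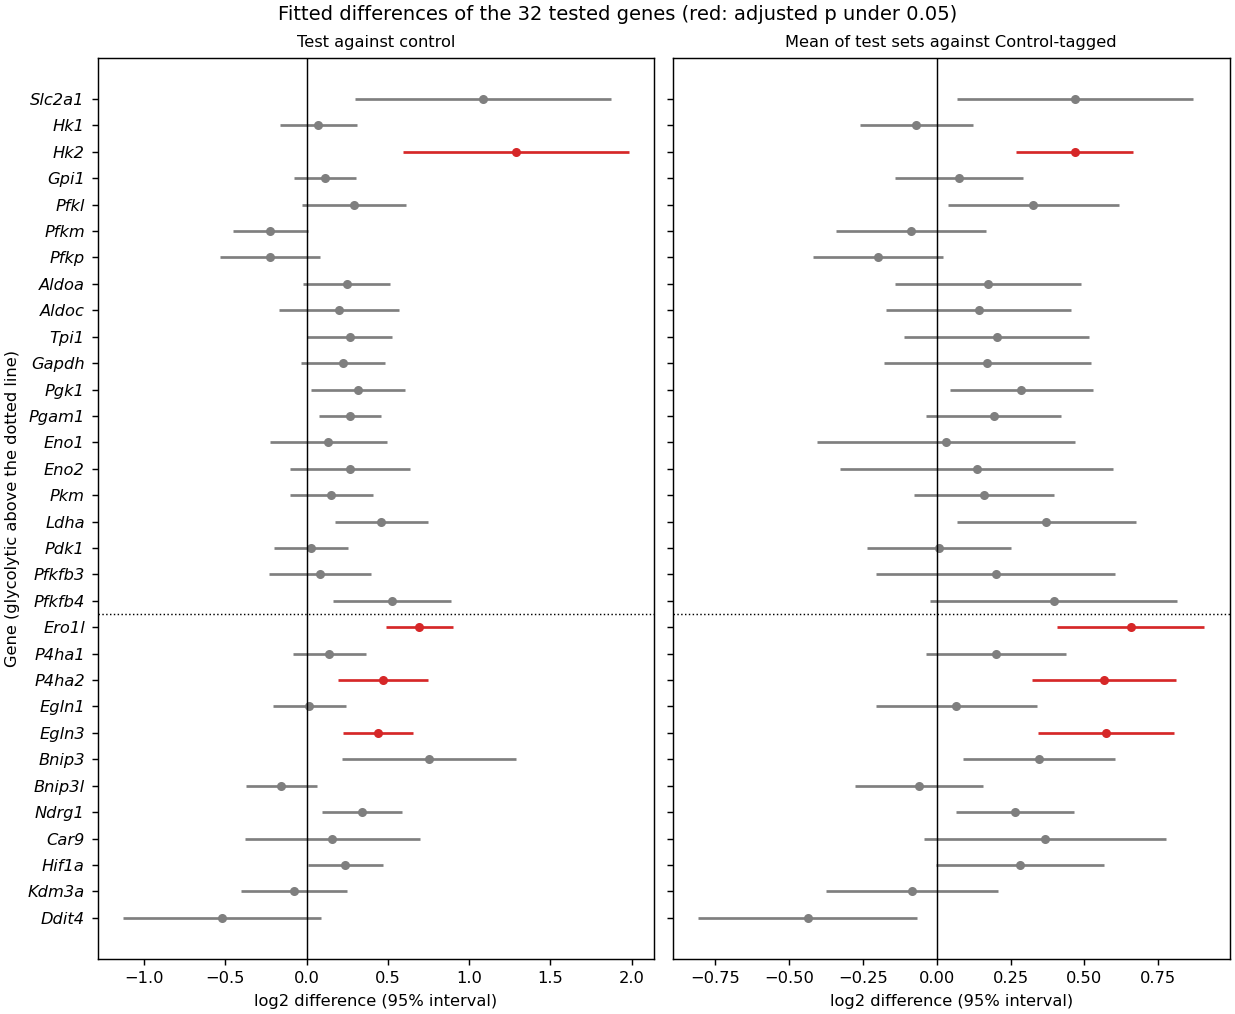
Points are limma's log2 differences and bars their 95% intervals, on the left for 6 test against 4 control libraries and on the right for the mean of the 3 Test sets against the Control-tagged set, with called genes in red. The same 4 genes are red on both sides, and the value of Hk2 is 1.29 on the left and 0.47 on the right. The bars on the right use only the spread between the 2 libraries of a set.

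Bnip3, the mitophagy receptor gene, had 12.07 and 11.67 FPKM in Blank, 18.84 and 24.66 in Control, 23.84 and 23.81 in Test1, 41.55 and 39.24 in Test2 and 23.33 and 20.76 in Test3. Test2 stood above all other libraries, and Control-2 lay above Test1 and Test3. The log2 difference of 0.75 (standard error 0.25) did not pass (adjusted p = 0.0835 from limma), and without Control-2 it was 0.95 with an adjusted p of 0.0395. Its relative Bnip3l had 39.40 to 49.36 FPKM in control and 36.30 to 46.45 in test (log2 difference -0.15).

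Ndrg1, a gene of differentiation and stress, had 20.67 and 19.05 FPKM in Blank, 21.90 and 22.44 in Control, 24.79 and 25.33 in Test1, 23.28 and 24.56 in Test2 and 32.87 and 31.63 in Test3. Every test library was above every control library, and the log2 difference was 0.34 (standard error 0.11, adjusted p = 0.0885 from limma). Ddit4, which encodes the mTORC1 inhibitor REDD1, had 6.79 and 9.25 FPKM in Blank, 8.00 and 6.01 in Control, 4.71 and 5.94 in Test1, 7.65 and 8.23 in Test2 and 3.10 and 2.15 in Test3 (log2 difference -0.52, adjusted p = 0.268 from limma). Car9, the surface carbonic anhydrase gene, had 7.90 and 5.86 FPKM in Blank, 6.01 and 3.89 in Control, 3.57 and 5.40 in Test1, 5.84 and 6.72 in Test2 and 9.24 and 10.70 in Test3 (log2 difference 0.16, adjusted p = 0.733 from limma). The groups overlapped for both genes, and the lowest Ddit4 and highest Car9 values were those of Test3. Among the untested genes, Adm had 0.18 to 0.35 FPKM in control and 0.33 to 1.02 in test, highest in both Test3 libraries, and Ankrd37 0.25 to 1.42 and 0.28 to 2.02, highest in Test2-2.

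For single genes an exact permutation test (two-sided, 210 arrangements of 6 and 4 libraries) gave p = 0.00476, the smallest it can give, for Hk2, Pgam1, Ero1l and Egln3. For P4ha2 the exact permutation p was 0.0143, for Ldha and Ndrg1 0.019, for Slc2a1 0.0381 and for Bnip3 0.0524. These are unadjusted values of single genes, and the test treats the 2 libraries of a set as independent, although libraries of a set had a consensus correlation of 0.35. With a random effect for the set, the adjusted p of Pgam1 was 0.225 from limma.

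The control sets themselves differed in 3 of these genes. In a limma fit of the 5 label sets, whose spread is that between the 2 libraries of a set, Slc2a1, Hk2 and Bnip3 were higher in Control than in Blank libraries, and 0 genes were lower. This is 9.38% of the 32 genes, beside 4.55% of all genes that were higher and 1.39% that were lower. Hk2 was 3.30-fold higher by set means (log2 difference 1.64, standard error 0.11, adjusted p = 5.5e-06 from limma), Slc2a1 2.44-fold (1.23, standard error 0.22, adjusted p = 0.00728) and Bnip3 1.83-fold (0.81, standard error 0.14, adjusted p = 0.00632). The call of Hk2 held without any 1 library, that of Slc2a1 was lost without Blank-1, Blank-2 or Control-1 (adjusted p up to 0.0719), and that of Bnip3 without Blank-1 or Blank-2 (up to 0.0749). The other 29 tested genes did not pass, with log2 differences from -0.42 (Car9) to 0.29 (Hk1). The epithelial keratin genes Krt8 (564 and 526 FPKM in Blank, 966 and 992 in Control) and Krt18 (807 and 754, 1776 and 1779) moved with this split. Epcam (3.59 and 4.24, 4.67 and 5.78) and Cldn4 (2.86 and 2.23, 4.65 and 3.53) were also higher in Control. Cdh1 (11.23 and 13.01, 11.92 and 11.72) and Cldn7 (0.47 and 1.16, 1.29 and 0.98) overlapped. The part of these markers in the result was not tested.

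Set against the Control libraries alone, the test sets were higher in the same 4 genes that rose against all controls. In the fit of label sets the mean of Test1, Test2 and Test3 was above Control by 0.66 on the log2 scale for Ero1l (adjusted p = 0.0104), 0.57 for Egln3 (0.0141), 0.57 for P4ha2 (0.0202) and 0.47 for Hk2 (0.0182, all from limma). These are 12.5% of the 32 genes, against 2.00% of all genes that were higher and 1.61% that were lower, and 0 of the 32 were lower. Both comparisons share the Control and the test libraries, and the spread used here is only that between the 2 libraries of a set. In the fit without label sets, which takes in the spread among Test sets, the adjusted p from limma was 0.0818 for Ero1l and 0.0994 for Egln3. It was 0.281 for P4ha2 and 0.202 for Hk2. Each of the 4 calls was lost without Control-1 or Control-2 (adjusted p up to 0.129 for Ero1l, 0.138 for Egln3, 0.160 for P4ha2 and 0.123 for Hk2), and that of Hk2 also without Blank-1 or Blank-2 and with the replicate block (0.0505). The Control libraries differed from the Blank libraries by far more in Hk2 (log2 difference 1.64) than the test sets did from Control (0.47), while for Ero1l the corresponding values were 0.07 and 0.66. Slc2a1 and Bnip3 had log2 differences of 0.47 and 0.35 between the test sets and Control (adjusted p = 0.223 and 0.152 from limma).

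The test sets were not alike either. Against the mean of Test1 and Test2, Test3 had more RNA of Pgk1, Ndrg1 and Car9 and less of Slc2a1, Pfkp, Bnip3 and Ddit4 (9.38% of the 32 genes higher and 12.5% lower, beside 3.35% and 3.13% of all genes). The largest differences were those of Slc2a1, with 65.1 FPKM in Test3 against 134 in Test1 and 152 in Test2 (log2 difference -1.11, standard error 0.19, adjusted p = 0.00931 from limma), and of Ddit4, with 2.63 against 5.33 and 7.94 FPKM (-1.06, standard error 0.18, adjusted p = 0.00794). Pfkp had a log2 difference of -0.54 (standard error 0.10, adjusted p = 0.0162 by limma), and Bnip3 had a log2 difference of -0.48 (adjusted p = 0.0471). Car9 was higher with a log2 difference of 0.80 (standard error 0.20, adjusted p = 0.0394 from limma), Pgk1 with 0.47 (0.0414) and Ndrg1 with 0.38 (0.0432). The calls of Bnip3, Car9, Pgk1 and Ndrg1 were lost with the replicate block, while those of Slc2a1, Pfkp and Ddit4 held. Those of Bnip3, Car9 and Pgk1 were also lost with no filter on low values, and that of Ndrg1 with median-ratio scaling. Ddit4 alone kept its call without any 1 library. With any 1 library left out, the log2 difference ran from -1.26 to -0.95 for Slc2a1 and from -0.65 to -0.43 for Pfkp. The range was -0.56 to -0.40 for Bnip3, 0.68 to 0.93 for Car9, 0.38 to 0.56 for Pgk1 and 0.36 to 0.41 for Ndrg1. Leaving out either Test3 library leaves 1 in that set. Cd3d was highest in Test3-1 (16.65 FPKM, and 5.17 in Test3-2), but Lck had 0.26 and Il2ra 0.00 FPKM in Test3-1. The epithelial keratin genes Krt8 (375 and 461 FPKM) and Krt18 (730 and 967) were also lower in Test3 than in Test1 and Test2 (826 to 986 and 1382 to 1882). The other epithelial markers did not follow them. Epcam (7.09 and 5.16 FPKM) and Cdh1 (11.26 and 10.44) lay within the range of Test1 and Test2. Cldn4 had 11.58 and 8.94 FPKM against 5.44 to 9.03, and Cldn7 1.60 and 0.84 against 1.11 to 2.30. The part of these markers in the differences of Test3 was not tested.

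Between Test1 and Test2 limma called 0 of the 32 genes, while 6 had an unadjusted p under 0.05, and of all genes 0.116% were higher and 0.0448% lower in Test1. Bnip3 had the lowest adjusted p of the 32 (log2 difference -0.74, interval -1.05 to -0.42, adjusted p = 0.0967 from limma), with 23.8 FPKM in Test1 and 40.4 in Test2. Next to it stood Pfkl (log2 difference -0.55, adjusted p = 0.286) and P4ha2 (0.41, adjusted p = 0.331). Of the 20 tested glycolytic genes 18 had a lower fitted value in Test1, with a median log2 difference of -0.19 beside -0.05 over all genes.

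Within gene families the make-up moved from set to set. Hk2 made up 18.0% of the summed FPKM of Hk1 and Hk2 in each Blank library, 37.0% and 37.4% in Control and 45.1% to 47.4% in the test libraries, so that the hexokinases came near to equal levels. Pfkp held 56.2% to 61.5% of the phosphofructokinase FPKM in the Blank, Control and Test1 libraries, 49.5% and 54.4% in Test2 and 41.9% and 44.6% in Test3, where Pfkl had 46.0% and 44.6%. P4ha2 took 38.0% to 40.6% of the P4ha1 and P4ha2 sum in Test1 and Test3 and 26.4% to 31.7% in all other libraries. Egln3 took 33.5% to 41.6% of the Egln1 and Egln3 sum in control and 42.2% to 48.6% in test. No test was run on these shares.

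**Figure D4:**
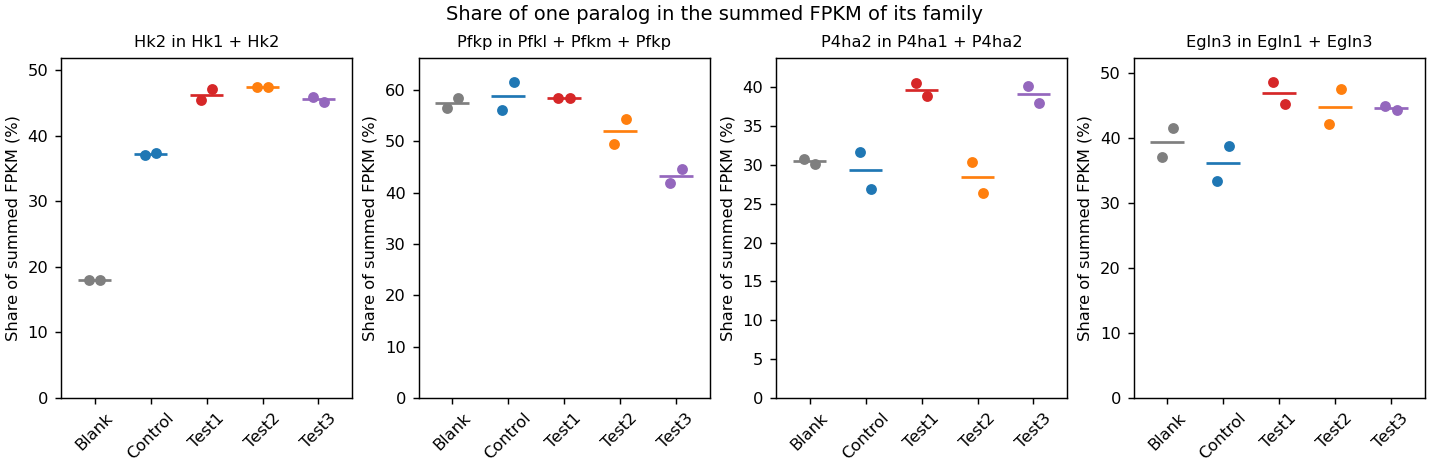
Each panel gives the share of 1 gene in the summed FPKM of its family in percent, with a point for each library and a line for the mean of the 2 libraries of a set. Hk2 goes from 18.0% in Blank to 37.2% in Control and 45.5% to 47.4% in the Test sets, and Pfkp is lowest in Test3 (43.3%).

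Genes of the neighboring pathways were taken from lists written down together with the 35 genes. Over all 11169 genes tested, 2.95% rose, 4.92% fell and 4964 had a value above 0 in test against control. The counts of the lists were not tested against those shares. Of 15 other tested genes of glycolysis and pyruvate handling, 0 rose and 2 fell in test against control: Eno3, the muscle enolase gene, from a mean of 10.4 to 5.95 FPKM (log2 difference -0.69, adjusted p = 0.0243) and Bpgm, which makes 2,3-bisphosphoglycerate, from 10.0 to 6.33 (-0.58, adjusted p = 0.0358, both from limma). Of 15 pentose phosphate and glycogen genes 0 rose and 1 fell, the glycogen phosphorylase gene Pygb (-0.31, adjusted p = 0.0490 from limma). The 18 tested genes of the tricarboxylic acid cycle held 0 calls in limma, with 0 at an unadjusted p under 0.05, and a median log2 difference of -0.01. The 12 other regulators of HIF also held 0 calls, with 1 at an unadjusted p under 0.05, and all 12 values were above 0 (median 0.15).

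Of 27 other tested hypoxia-responsive genes 3 rose and 3 fell, with a median of 0.15. Over all genes tested 2.95% rose and 4.92% fell, with a median of -0.03. The angiogenic factor gene Vegfa rose from a mean of 32.8 to 65.3 FPKM (log2 difference 0.98, adjusted p = 0.00345), the heme oxygenase gene Hmox1 from 6.38 to 15.0 (1.10, adjusted p = 0.0125) and the mitochondrial protein gene Fam162a from 70.3 to 123 (0.78, adjusted p = 0.0220, all from limma). The transcription factor gene Zfp395 had the largest fall, from 9.77 to 5.57 FPKM (-0.70, adjusted p = 0.0187 from limma). Against Test1 and Test2, Test3 was lower in Slc16a1, which encodes the lactate transporter MCT1 (18.9 against 32.9 and 33.5 FPKM, log2 difference -0.78, adjusted p = 0.00243), in G6pdx, the entry enzyme of the pentose phosphate pathway (-0.57, adjusted p = 0.0116), and in Vhl, which targets HIF for destruction (-0.65, adjusted p = 0.0457, all from limma). In the same comparison the circadian repressor gene Bhlhe40 was lower (18.0 against 56.7 and 36.1 FPKM, -1.28, adjusted p = 0.000240 from limma).

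Exons of 14 of the 35 genes overlap those of another annotated gene, in 11 of them on the opposite strand only, and whether fragments were counted by strand is not stated. Slc2a1, Bnip3 and Pfkp are among those with an opposite-strand neighbor, and if fragments were counted without strand, reads of the neighbor are part of their values.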

How the data were processed

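BGI sequenced RNA of PyMt cells on an Illumina HiSeq, and Bowtie was used for alignment to mm10, per the paper's methods and the submitters' processing notes. The authors deposited 1 table of FPKM with 2 decimals. For the FPKM program, the annotation release and read filters, the answer is not given in the sources used here, and the study's differential expression tools (a Poisson method, Noiseq or EBSeq) were not used, since the values are FPKM without read counts.

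Values were taken as log2(FPKM + 1), and the 11169 genes that reached 1 FPKM in 4 or more libraries were fitted in R 4.3.3 by limma 3.58.1 (moderated by eBayes along a trend, two-sided, Benjamini-Hochberg, threshold 0.05), once with 6 test and 4 control libraries and once with 5 label sets. Tables were read with pandas 2.3.3 and figures drawn with matplotlib 3.10.9 (Python 3.11.15). The procedure was tested on simulated data with independent libraries, which leaves out the correlation within sets. All 35 genes were named with values, and of each pathway list at most the 4 called genes with the largest difference. Of the genes that this rule names, 1 is not reported here. The genes and lists were chosen with earlier results of these data known. No 2 libraries shared more than 43 equal values of at least 1 FPKM. Promoters are from RefSeq (GRCm38.p6) and exon overlaps from GENCODE. Depth was estimated from 5571 genes with 1 transcript length, and no interval that needs read counts was computed. Labels give no pairing of libraries by number, and same-numbered libraries did not deviate together. Alternatives covered the pseudocount, filter, scaling, trend, replicate block, unit of replication, control libraries and each library left out.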

Additional observations from a re-analysis of the deposited data

Results flagged for a closer look

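In 6 of 70 groups of libraries (35 genes in 4 control and in 6 test libraries), the library at 1 end stood farther from its neighbor than Dixon's test allows. The test flags about 1 in 20 groups when each comes from the same normal distribution. Here each group mixes label sets and genes move together, so the 6 cannot be set against that rate. The values are the gap to the nearest library as a share of the range of the group. Control-1 was the library set apart in 4 of the 6. Among control libraries its Aldoa level of 575.09 FPKM was above the next at 463.39 (gap 0.926 of the range), its Eno1 level of 1136.94 above 862.27 (0.854), its Pfkfb4 level of 3.01 above 1.69 (0.857), and its Slc16a3 level of 0.18 below 0.30 (0.857). Among test libraries, Test3-1 had 0.84 FPKM of Slc16a3 with the next at 0.26 (gap 0.8286 of the range), and Test2-1 had 49.43 FPKM of Hif1a with the next at 61.95 (0.639).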

How the results depend on the processing

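In test against control, 4 of the 32 genes were called. Their count was 2 with no filter on low values, 2 with the library number as a replicate block, 1 with a random effect for the set (Ero1l), 0 with the mean of each set as 1 sample (limma then called 0 of all genes), 0 with the Control-tagged libraries alone as control (36 of all genes higher and 8 lower), and 1 to 6 with 1 library left out. It was 4 with a pseudocount of 0.1, with quantile normalization and with no trend, 5 with the Blank-tagged libraries alone as control (2 of the 4, Hk2 and Ero1l, with Slc2a1, Bnip3 and Pfkfb4), and 6 with median-ratio scaling, which added Ldha and Pgam1 and gave 362 higher and 360 lower genes in place of 330 and 549. Leaving out 1 library gave 1 to 3 calls for Control against Blank (3 in full), 0 to 4 for the test sets against Control (4), 1 to 6 for Test3 against Test1 and Test2 (7), and 5 to 9 genes without overlap (5, and 9 without Control-1). Without Control-2 the 7 genes without overlap included 1, Pfkm, in which test was below control. Calls over all genes moved as well in test against control, with 82 higher and 63 lower without Blank-1 and 635 and 824 without Control-1. Leaving out a library also loosens the rule of no overlap for every gene. The share over all genes was not computed for these reduced sets of libraries. The calls of Test3 numbered 4 with no trend and 3 with the replicate block. Same-numbered libraries correlated at -0.52 to 0.261 over 10 pairs of sets, above 0.1 in 1, and the numbers were not taken to pair the libraries. No called gene changed direction. At the estimated depths, genes near 1 FPKM such as Eno2 and Pfkfb3 rest on few reads.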

Other observations

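Within a label set the glycolytic genes tended to move together between the 2 libraries. Of the 20 tested, 18 were lower in Control-2 than in Control-1 (median log2 difference -0.16, with -0.03 over all genes), 14 were lower in the second Blank and Test2 libraries (medians -0.05 and -0.13), and 14 were higher in Test1-2 and Test3-2 (medians 0.14 and 0.17). The estimated depth went from 13.5 to 12.9 M reads (M, mega) in Control, from 12.3 to 15.2 in Test1, from 15.2 to 12.4 in Test2 and from 11.2 to 12.5 in Test3, the same direction as the glycolytic median, and was 13.6 in both Blank libraries. The part of depth in these differences was not tested. The other hypoxia genes had medians between -0.03 and 0.08.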
